A study of Mus musculus with 250 samples.

Results

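Serine is made from a glycolytic intermediate by 3 enzymes in a row. Phgdh oxidises 3-phosphoglycerate, Psat1 moves an amino group onto the product from glutamate, and Psph removes the phosphate to give serine. Shmt1 in the cytosol and Shmt2 in mitochondria then split serine into glycine and a one-carbon unit carried by folate, and Mthfd2 oxidises that unit in mitochondria for nucleotide synthesis. Slc1a4 (ASCT1) and Slc1a5 (ASCT2) exchange small neutral amino acids across the plasma membrane, serine among them and, for Slc1a5, glutamine. Glul (glutamine synthetase) joins ammonia to glutamate to make glutamine. In many cell types Phgdh, Psat1, Shmt2, Mthfd2 and Slc1a4 are known targets of Atf4, the transcription factor of the amino acid stress response.

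These 9 genes, of 27003 gene rows in the deposited table, were chosen from measured values of the same cells, so their levels and ratios are given as a description, without a test. All 9 had a row and at least 1 read. The data are read counts in 250 single epidermal cells of mouse tail skin, read with the Smart-Seq2 protocol, which covers whole transcripts and carries no molecular identifiers. All cells came from Lrig1CreER/Rosa-TdTomato mice, in which a tamoxifen-inducible Cre driven by Lrig1, a stem cell gene of the upper hair follicle, turns on a red reporter in a cell and its progeny. They were sorted as lineage-labelled and Sca1-positive (Sca1 is encoded by Ly6a) to enrich the upper follicle, at a time given as 8 weeks with a further abbreviation, pw1, that the labels do not spell out. The distal memory region gave 81 cells (32 in batch 1 and 49 in batch 2), the wound bed 85 cells (30 and 55) and the control region, described as non-memory, 84 cells (28 and 56). The age, the sex and the number of mice are not given in the sources used here. No animal is named, so each region is 1 sample and no region was tested against another. Each region and batch had a plate of its own, so regions and plates cannot be told apart within a batch.

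Summed reads per plate ranged from 1751116 to 10671470, and the median cell had 49298 reads and 1836.5 detected genes. In the distal plate of batch 1, 4 cells with over 500000 reads held 72.8% of the reads. In the control plate of batch 1, predicted genes (symbols of the form Gm and a number) took over 10% of the non-mitochondrial reads in 19 of 28 cells, against at most 4 cells in any other plate. For the 9 genes, results that met the size rule defined below with all cells are given without these cells as well. Ratios of other genes are given with all cells only. All 8 keratinocyte markers, such as Krt5 and Krt14, had reads in every plate. Summed markers of other cell types stood at 0 to 20.6 CPM for immune cells, 0 to 91.3 CPM for fibroblasts, 0.3 to 288 CPM for melanocytes and 0 to 8.5 CPM for endothelial cells. Sebaceous markers summed to 1286 and 343 CPM in distal, 403 and 601 CPM in wound bed and 3083 and 531 CPM in control plates. The T cell genes Cd3e and Trdc and the Langerhans cell gene Cd207 had no read in any region, nor had the fibroblast genes Col1a2 and Pdgfra or the endothelial gene Cdh5.

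Promoter sequence is shown for Psat1 and Slc1a4, the genes with the largest wound bed excess among the 9. It comes from the RefSeq annotation of GRCm38.p6, which gave an entry for 8 of the 9 genes, all except Slc1a5, and covers 300 bases, 250 of them before the annotated transcription start. Both genes lie on the minus strand, and the sequences are written in the direction of transcription. Psat1 (chr19:15925010-15925309) has a second RefSeq start nearby that is not shown. Capitals in Slc1a4 (chr11:20332664-20332963) mark a match to TGATGNAA, the letters of the composite element that Atf4 and C/EBP proteins are known to bind, here on the opposite strand and beginning at position -4 relative to the start site.
Psat1: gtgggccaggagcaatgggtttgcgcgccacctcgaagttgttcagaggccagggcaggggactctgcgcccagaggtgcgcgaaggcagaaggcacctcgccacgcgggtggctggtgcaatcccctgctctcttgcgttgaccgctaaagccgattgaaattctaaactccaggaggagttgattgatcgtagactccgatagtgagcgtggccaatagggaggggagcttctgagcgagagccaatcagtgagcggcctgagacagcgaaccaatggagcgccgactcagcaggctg
Slc1a4: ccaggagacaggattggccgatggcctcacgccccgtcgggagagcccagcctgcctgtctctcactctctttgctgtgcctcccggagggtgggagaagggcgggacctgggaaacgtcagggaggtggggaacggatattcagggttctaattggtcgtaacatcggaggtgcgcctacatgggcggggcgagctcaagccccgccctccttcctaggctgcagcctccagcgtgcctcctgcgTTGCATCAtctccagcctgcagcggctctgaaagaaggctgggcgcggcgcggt
Searched on both strands, the letters TGATGNAA occurred in the Slc1a4 promoter and in none of the other promoters of these genes. They occurred in 3.97% of 32851 mouse promoters of the same length. The Slc1a4 match also holds TGATGCAA, a narrower form contained in the first, which 0.895% of promoters hold. A match is a description of letters and not a measured binding site.

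Psat1 was the member detected in the most cells, 103 of 250, and its reads were concentrated in the wound bed. It lies at chr19:15904678-15947337 (GRCm38, minus strand). Its reads numbered 548 and 247 in the distal plates of batches 1 and 2, 479 and 1614 in the wound bed plates, and 55 and 300 in the control plates. In normalised read counts (CPM, the plate's reads of a gene scaled to its total with TMM factors) this was 72.4 and 69.8 CPM in the distal region, 265 and 487 CPM in the wound bed and 15.6 and 60.01 CPM in control. Both wound bed plates stood above every other plate. Cells with a read made up 35.8% in the distal region (exact 95% interval 25.4 to 47.2%), 63.5% in the wound bed (52.4 to 73.7%) and 23.8% in control (15.2 to 34.3%). Every interval on a share here treats cells as independent draws, and every counting interval on a fold treats reads so. Reads are not independent molecules, so the intervals on folds are too narrow even for counting error. Neither kind covers differences between plates or mice. With every cell thinned to 10000 reads 27.3% of 77 distal, 52.6% of 78 wound bed and 15.7% of 83 control cells had a read. Wound bed cells with a read also had more of it, with a median of 431 CPM, against 160 CPM in distal and 138 CPM in control cells with a read. By batch these medians were 233 and 688 CPM in wound bed, 137 and 293 CPM in distal and 126 and 160 CPM in control cells. The highest wound bed cell, at 6442 CPM, was in batch 2. In batch 1 the highest wound bed cell had 783 CPM and the highest distal cell 1177 CPM.

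Against control, Psat1 was 17-fold higher in the wound bed in batch 1 (counting interval 12.8 to 22.9) and 8.12-fold higher in batch 2 (7.17 to 9.22). On the scale of log2(CPM + 1), used for all log2 ratios here, these were 4.0 and 3.0. A gene was considered where at least 10% of the cells of 1 of the compared regions had a read in each batch, and it met the size rule where both batch ratios were at least 1 in size and of the same sign. Psat1 met this rule for wound bed against control in the main setting and in all 15 alternatives. Without the cells rich in predicted genes its ratios were 4.28 and 3.0, and without cells over 500000 reads they were 4.01 and 3.0. For any gene in this comparison, the latter setting changed the scaling alone, since no wound bed or control cell had over 500000 reads. Dropping the detection filter or using a single batch could not undo a result that met the rule. In the distal region Psat1 was 3.66-fold lower than in the wound bed in batch 1 (3.23 to 4.14) and 6.98-fold lower in batch 2 (6.10 to 8.01), with log2 ratios of -1.86 and -2.79. These ratios were -1.47 and -2.79 without cells over 500000 reads and -2.0 and -2.97 without cells rich in predicted genes, but -0.63 and -2.44 with every cell weighted equally and -0.91 and -2.52 with cells thinned to 10000 reads, where the rule was not met. Distal against control gave 2.15 and 0.22, a difference present in batch 1 alone.

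**Figure D1:**
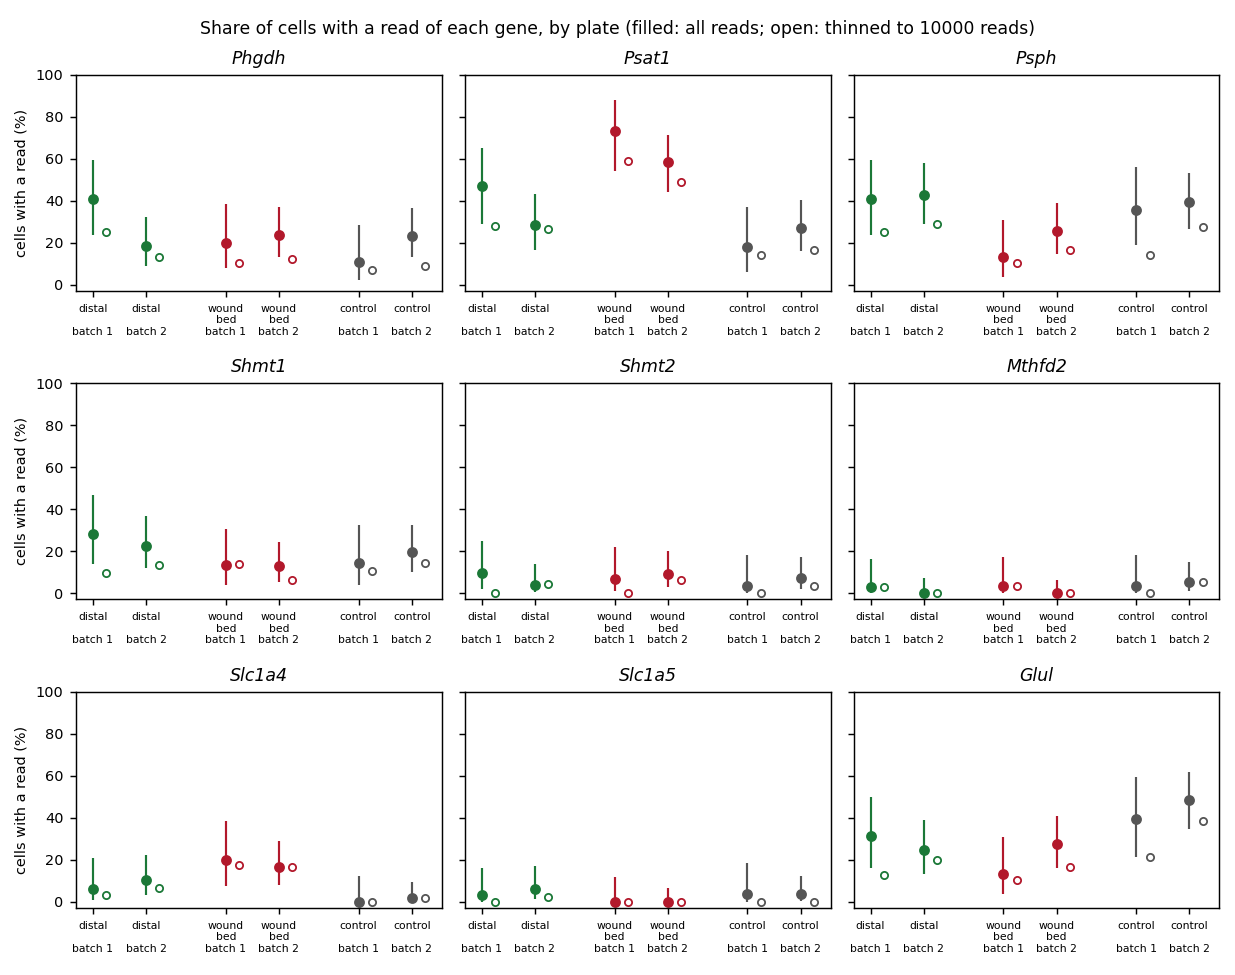
Share of cells with at least 1 read of each of the 9 genes (y axis, percent) in each of the 6 plates (x axis). Filled points with bars are the deposited counts with exact 95% intervals, and open points the same after thinning each cell to 10000 reads; for Psat1 the wound bed points stand above the other regions in both batches, at 63.5% over both plates.

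Marker sums are given beside Psat1. Reads of Ly6a and Lrig1, the genes of the sort and the lineage, summed to 100 and 224 CPM in the distal plates. The sums were 521 and 600 CPM in the wound bed plates and 154 and 176 CPM in the control plates. The sum was thus highest in the wound bed in both batches. In the wound bed plate of batch 2 only Ly6a had reads, so the 600 CPM there holds no Lrig1. The 8 suprabasal markers, Krt1 and Krt10 among them, summed to 20759 and 12334 CPM in the distal plates, 34912 and 26298 CPM in the wound bed plates and 15159 and 14886 CPM in the control plates, so they too were highest in the wound bed. Within plates, cells with more suprabasal marker reads had less Psat1, with a mean Spearman rho of -0.17 over the 6 plates (range -0.28 to -0.09). With the sum of 7 basal markers, such as Col17a1, the mean rho of Psat1 was 0.16 (0.02 to 0.34). The 10 cycling markers, such as Mki67 and Top2a, summed to 2882 and 552 CPM in distal, 1201 and 1631 CPM in wound bed and 1225 and 567 CPM in control plates. The cycling sum was highest in the distal plate in batch 1 and in the wound bed plate in batch 2, where the distal and control plates lay close together. Within every plate Psat1 was higher in cells with more of these reads, with a mean rho of 0.36 (0.16 to 0.52). In cells thinned to 10000 reads without a read of Mki67 or Top2a, Psat1 was detected in 19.7% of 61 distal (10.6 to 31.8%), 46% of 63 wound bed (33.4 to 59.1%) and 9.86% of 71 control cells (4.06 to 19.3%). The distal and control intervals overlap. In cells with such a read it was detected in 56.25% of 16 distal (29.9 to 80.2%), 80% of 15 wound bed (51.9 to 95.7%) and 50% of 12 control cells (21.1 to 78.9%). There the intervals of all regions overlap. Absence of a read at this depth does not show that a cell was not cycling. The part of these cell states in the region difference was not tested.

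Phgdh, the first enzyme of serine synthesis, did not follow Psat1 across both batches. Its reads numbered 129 and 67 in the distal plates, 27 and 43 in the wound bed plates and 7 and 83 in the control plates. The control plate of batch 1 was low, with 1.98 CPM, and the other 5 plates lay between 13 and 18.9 CPM. Wound bed against control was accordingly 2.42 in batch 1 and -0.33 in batch 2, distal against control 2.60 and 0.18, and distal against wound bed 0.18 and 0.51. None of these met the size rule, whereas with cells thinned to 10000 reads distal against control was 2.60 and 1.17 and met it. Over both batches together, reads were found in 27.2% of distal (17.9 to 38.2%), 22.4% of wound bed (14 to 32.7%) and 19% of control cells (11.3 to 29.1%), with overlapping intervals. By batch these shares were 40.6% and 18.4% in distal, 20% and 23.6% in wound bed and 10.7% and 23.2% in control cells. The distal share was thus the highest in batch 1 and the lowest in batch 2. The gene lies at chr3:98313170-98339990 (minus strand), and 56.3% of the distinct 31-base stretches of its transcripts recur in other annotated genes, mostly in the predicted gene Gm7901. The counting could therefore have split its reads, although the 6 of the 24 main sharers with a row in the table had 10 reads together.

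Psph, which releases serine in the last step, was found in 84 of 250 cells, and its plate sums were close in the distal and control regions. Its reads numbered 330 and 333 in the distal plates, 70 and 106 in the wound bed plates and 156 and 478 in the control plates. This was 43.6 and 94.1 CPM in distal, 38.7 and 32 CPM in wound bed and 44.2 and 95.6 CPM in control plates. Distal against control was -0.02 in both batches, with counting intervals on the fold of 0.81 to 1.2 and 0.85 to 1.13. In batch 1 this rests on very deep cells, since the ratio there was 1.28 without cells over 500000 reads, 2.46 with thinned cells and 2.70 with every cell weighted equally. The wound bed was lower in batch 2 alone, at -0.19 and -1.55 against control. Distal against wound bed was 0.17 and 1.53. It met the size rule at 1.47 and 1.53 without cells over 500000 reads, at 2.10 and 1.79 with thinned cells and at 2.89 and 1.79 with equal weights. A read was found in 42% of distal (31.1 to 53.5%), 21.2% of wound bed (13.1 to 31.4%) and 38.1% of control cells (27.7 to 49.3%). Psph (chr5:129765558-129787449, minus strand) shares 9.45% of its 31-base stretches with Cct6a, a chaperonin gene that had 2247 reads here. In the main setting Psat1 was the only one of the 3 enzymes of serine synthesis to meet the size rule, and the alternatives above are exceptions.

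Slc1a4 showed the widest contrast of the 9 genes, and rests on few cells. The transporter had 6 and 62 reads in the distal plates, 65 and 212 in the wound bed plates, and 0 and 1 in the control plates. Cells with a read numbered 7 of 81 in distal, 15 of 85 in wound bed and 1 of 84 in control. As shares this was 8.64% in distal (3.55 to 17%), 17.6% in wound bed (10.2 to 27.4%) and 1.19% in control (0.0301 to 6.46%). The levels were 0.793 and 17.5 CPM in distal, 36 and 64 CPM in wound bed and 0 and 0.201 CPM in control plates. Against a floor of 3 counts for the control plate of batch 1, the wound bed was at least 42.3-fold higher there. In batch 2 the ratio to the single control read was 320-fold, with a counting interval of 56.8 to 12697. On the log2 scale these ratios were 5.21 and 5.76, and they met the size rule in 14 of 15 alternatives, all except the requirement of reads in at least 25% of cells. Without the cells rich in predicted genes they were 5.24 and 5.79, and without cells over 500000 reads 5.27 and 5.81.

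In the distal region Slc1a4 was 45.3-fold lower than in the wound bed in batch 1 (19.7 to 128) and 3.65-fold lower in batch 2 (2.74 to 4.93), with log2 ratios of -4.36 and -1.81. With every cell weighted equally these were -1.70 and 0.08 and the rule was not met. A single distal cell of batch 2 held 2628 CPM. They were -3.53 and -1.81 without cells over 500000 reads and -4.62 and -1.61 without cells rich in predicted genes. Distal against control was below the detection requirement, with 6 distal reads against 0 control reads in batch 1 and 62 against 1 in batch 2. The gene lies at chr11:20302180-20332713 (minus strand) and shares no 31-base stretch with another annotated gene.

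Slc1a5, the glutamine carrier of the same family, was at the limit of detection everywhere. It had 3 and 24 reads in the distal plates, none in the wound bed plates, and 1 and 4 in the control plates. These reads came from 4 distal, 0 wound bed and 3 control cells, and 20 of the 24 distal reads of batch 2 came from 1 cell. The absence of reads in 85 wound bed cells leaves an exact upper bound of 4.25% on the share of cells with a read. Slc1a5 met the detection requirement in no comparison, so no difference was detectable at this depth. Whether the wound bed excess of Slc1a4 had a counterpart in Slc1a5 could not be seen from so few reads.

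**Figure D2:**
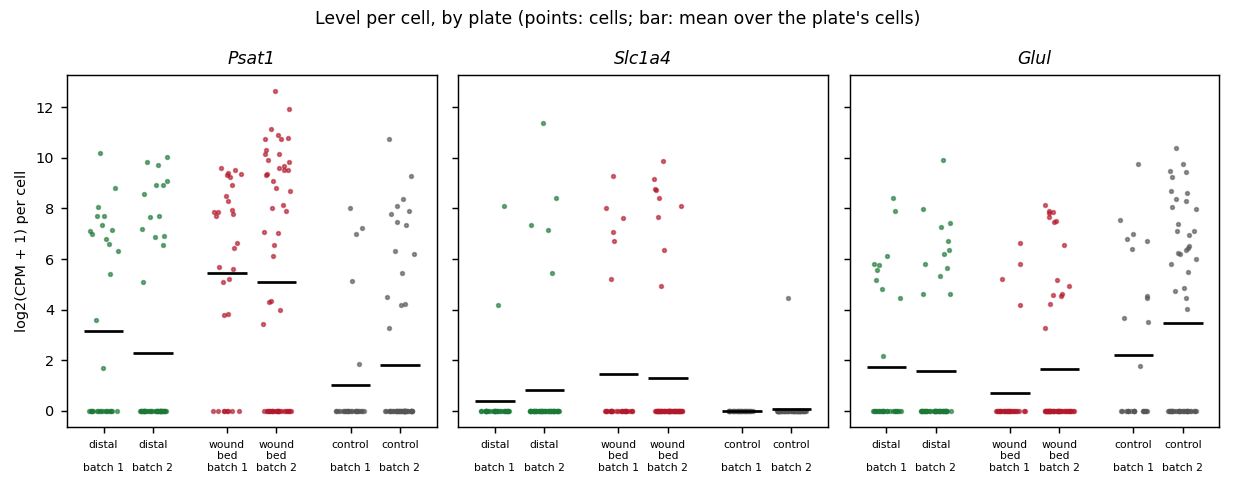
Level of Psat1, Slc1a4 and Glul in each cell, as log2(CPM + 1) (y axis), by plate (x axis). Each point is a cell and each bar the mean over the plate's cells; Slc1a4 lies at 0 in all but 1 of the 84 control cells, and Psat1 has its highest cell, at 6442 CPM, in the wound bed.

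Shmt1, the cytosolic serine hydroxymethyltransferase, was lower in the wound bed than in control. Its reads numbered 138 and 69 in the distal plates, 21 and 27 in the wound bed plates and 119 and 129 in the control plates. These were 18.2 and 19.5 CPM in distal, 11.6 and 8.15 CPM in wound bed and 33.7 and 25.8 CPM in control plates. Wound bed plates were the lowest and control plates the highest in both batches. Wound bed against control was 2.91-fold lower in batch 1 (1.82 to 4.87) and 3.17-fold lower in batch 2 (2.08 to 4.99), with log2 ratios of -1.46 and -1.55. They were -1.72 and -1.55 without cells rich in predicted genes, and -1.46 and -1.55 without cells over 500000 reads. Single cells carry much of this, since 68 of the 119 and 73 of the 129 control reads came from 1 cell each. Without the cell with the most reads in each plate the ratios were -1.57 and -0.97, with equal weight for each cell -0.84 and -1.86, and with thinned cells -0.03 and -2.07, so that the rule was not met. The shares of cells, 24.7% in distal (15.8 to 35.5%), 12.9% in wound bed (6.64 to 22%) and 17.9% in control (10.4 to 27.7%), had overlapping intervals. Distal against control was -0.85 and -0.39, and distal against wound bed 0.61 and 1.16.

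The mitochondrial enzymes were sparse. Shmt2 had 40 and 19 reads in the distal plates, 6 and 40 in the wound bed plates and 1 and 73 in the control plates, from 5 distal, 7 wound bed and 5 control cells. Mthfd2 had 7 and 0 reads in distal, 42 and 0 in wound bed and 5 and 36 in control plates, from 1 distal, 1 wound bed and 4 control cells. All 42 wound bed reads of Mthfd2 came from 1 cell. Neither gene met the detection requirement in any comparison, and the sign of their wound bed to control ratio differed between batches (1.75 and -0.25 for Shmt2, 3.32 and -3.04 for Mthfd2). No region difference was detectable for either at this depth.

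Glul, which makes glutamine, had its highest levels in the control region, opposite to Psat1. Its reads numbered 90 and 61 in the distal plates, 6 and 110 in the wound bed plates and 146 and 529 in the control plates. The levels were 11.9 and 17.3 CPM in distal, 3.32 and 33.2 CPM in wound bed and 41.4 and 106 CPM in control plates. Both control plates stood above the 4 other plates. A read was present in 27.2% of distal (17.9 to 38.2%), 22.4% of wound bed (14 to 32.7%) and 45.2% of control cells (34.3 to 56.5%). After thinning to 10000 reads these shares were 16.9%, 14.1% and 32.5% in the same order of regions. Among cells with a read the median was 55.3 CPM in distal, 54.8 CPM in wound bed and 107 CPM in control cells.

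Wound bed Glul was 12.5-fold lower than control in batch 1 (5.60 to 34.6), on 6 wound bed reads, and 3.19-fold lower in batch 2 (2.59 to 3.95), with log2 ratios of -3.30 and -1.64. These met the size rule in all 15 alternatives, and were -3.76 and -1.59 without the cells rich in predicted genes and -3.31 and -1.64 without cells over 500000 reads. Distal Glul was 3.48-fold lower than control in batch 1 (2.66 to 4.58) and 6.14-fold lower in batch 2 (4.70 to 8.14), with log2 ratios of -1.72 and -2.55. Without cells over 500000 reads the distal ratios were -0.39 and -2.55, and with every cell weighted equally -0.81 and -1.65, so that the rule was not met in either setting. They were -2.18 and -2.30 without the cells rich in predicted genes. Distal against wound bed was 1.58 and -0.91, with opposite signs in the 2 batches. Glul (chr1:153899944-153909723, plus strand) shares 20.4% of its 31-base stretches with other genes, chiefly the pseudogene Glns-ps1, which had 1 read.

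Markers of the upper hair follicle were highest in the control region as well. The 9 markers, among them Krt79 and Sostdc1, summed to 4263 and 6864 CPM in distal plates, 2338 and 12792 CPM in wound bed plates and 16573 and 28483 CPM in control plates. Within plates Glul had a mean rho of 0.19 with this sum (-0.08 to 0.64), and Psat1 one of -0.21 (-0.42 to 0.15). The part of follicle cells in the region differences of either gene was not tested.

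Taking the members by count, 4 of the 6 considered met the size rule for wound bed against control, with Psat1 and Slc1a4 higher and Shmt1 and Glul lower. Among all 5776 genes considered there, 7.83% met it as higher and 8.24% as lower. For distal against control 1 of 5 members met it, Glul as lower, where 8.07% of 6356 genes were higher and 6.09% lower. For distal against wound bed 2 of 6 members met it, Psat1 and Slc1a4 as lower, where 9.59% of 6285 genes were higher and 5.28% lower. Of the genes meeting the rule in that comparison 64.5% were higher, but 49.7% under scaling to total counts. Since the members were chosen from these contrasts, nothing is read from the counts beside the shares. The median log2 ratio over the 6 members considered was 1.11 and -0.94 for wound bed against control, against 0.03 and -0.03 over all genes considered. The comparisons share regions and are not independent of each other.

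**Figure D3:**
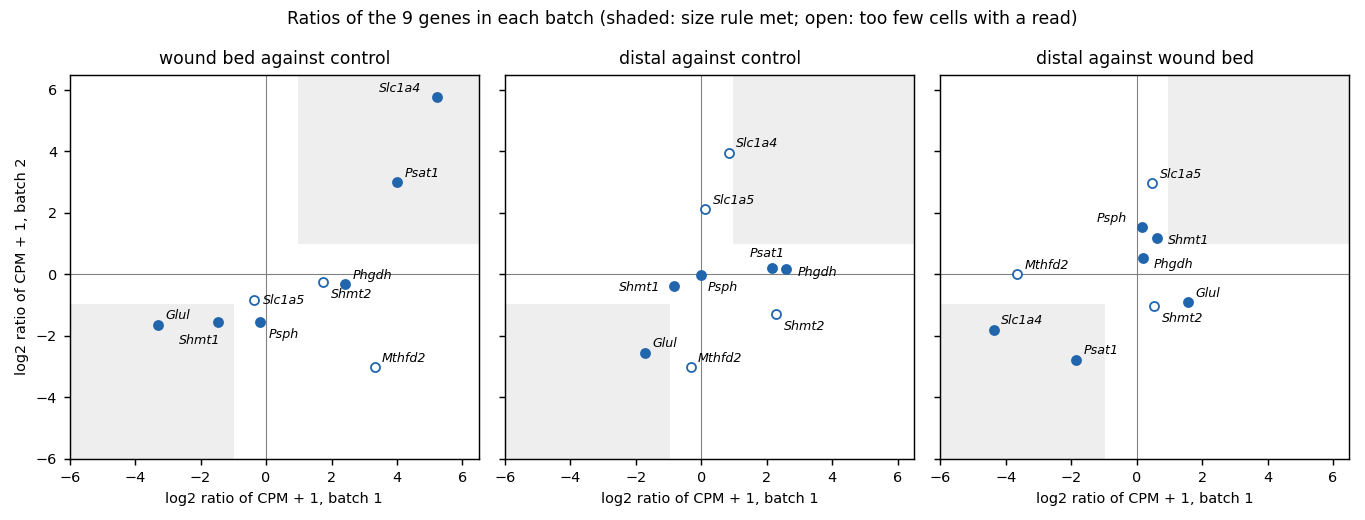
Log2 ratios of CPM + 1 for the 9 genes in batch 1 (x axis) and batch 2 (y axis), for wound bed against control, distal against control and distal against wound bed. Shaded corners hold ratios that meet the size rule in both batches and open points are genes with a read in too few cells; Psat1 (4.0 and 3.0) and Slc1a4 (5.21 and 5.76) lie in the upper corner of the first panel, and Glul lies in the lower corner of the first and second.

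The order of the genes by level per length also differed between regions. In CPM per kilobase of exon, as the mean of the 2 plates, the distal order was led by Psat1 (16.7) and Psph (15.9), followed by Phgdh (7.24), Shmt1 (4.86) and Glul (4.39). In the wound bed Psat1 led at 88.4, followed by Slc1a4 (12.7), Psph (8.17), Phgdh (5.61) and Glul (5.50). In control Glul led at 22.2, followed by Psph (16.2), Psat1 (8.89), Shmt1 (7.67) and Phgdh (3.74). Psat1 was first and Slc1a4 second in both wound bed plates, and Glul first and Psph second in both control plates. In the distal region Psat1 was first in batch 1 and Psph in batch 2, so their order did not hold across plates. Genes below these exchanged places between plates of the wound bed and control as well, and Glul took place 8 in batch 1 and place 3 in batch 2 of the wound bed.

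Co-expression of the members over the cells of a plate was weak. Over the 13 of 36 pairs with at least 10 cells holding reads of both genes, the mean within-plate Spearman rho of log2(CPM + 1) ranged from -0.09 to 0.21, with a median of 0.05. These values describe sparse counts from cells that share a plate, its depth and its handling. Consecutive enzymes of serine synthesis had values near 0, at 0.02 for Phgdh and Psat1 (26 cells with both) and 0.06 for Psat1 and Psph (32 cells). Phgdh and Psph, in 17 cells together, stood at -0.09, but at 0.43 among those 17 cells. Among cells with both genes, pooled over plates, the 13 pairs ran from -0.13 (Phgdh and Glul) to 0.62 (Shmt1 and Glul, 17 cells). Phgdh with Slc1a4 had the highest within-plate value (0.21, 11 cells, over 5 plates), yet stood at -0.04 among the cells with both. Psat1 with Shmt1 (0.17, 26 cells) was above 0 in each of the 6 plates, from 0.05 to 0.28. Psat1 and Slc1a4, the pair higher in the wound bed, stood at 0.12 within plates and at -0.11 among the cells with both. Psat1 reads were present in 11 of the 15 wound bed cells with Slc1a4 reads, beside 54 of all 85 wound bed cells. In the distal region they were present in 3 of 7 such cells, beside 29 of all 81.

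**Figure D4:**
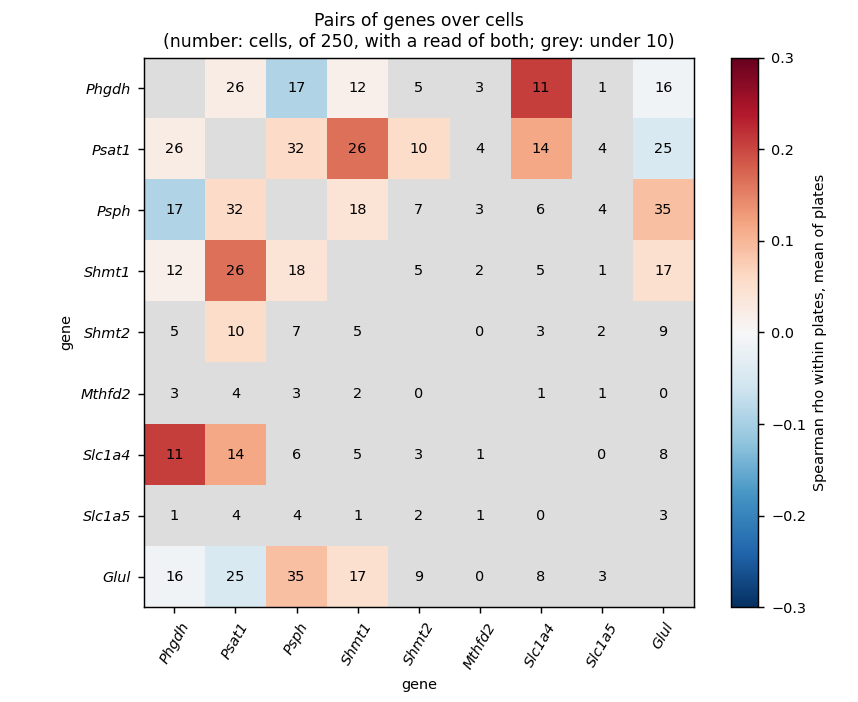
Pairs of the 9 genes. Colour is the mean within-plate Spearman rho of log2(CPM + 1) for pairs with at least 10 cells holding both (grey below that), and the number in each square is how many of the 250 cells had reads of both; the strongest colour is Phgdh with Slc1a4 at 0.21.

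Cells held few of the 9 transcripts at once. The mean was 1.78 members per cell in distal, 1.69 in wound bed and 1.60 in control cells, and 14 of 81 distal, 14 of 85 wound bed and 13 of 84 control cells had none. At least 4 members were read in 11 distal, 9 wound bed and 5 control cells. The full set of Phgdh, Psat1 and Psph was read in 6 distal, 2 wound bed and 0 control cells, but at 10000 reads per cell in only 1 distal cell, so the difference was not detectable at equal depth. Psph correlated most with the reads per cell, with a mean within-plate rho of 0.24, against 0.08 for Psat1 and 0.07 for Glul.

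Pcna and Slc6a6 were the genes most alike to Psat1 across cells. Likeness was the mean within-plate rho over the 6 plates, among the 1108 genes that at least 25% of cells held in every plate. The 5 highest were Pcna (0.34), the sliding clamp of DNA replication, Slc6a6 (0.32), the taurine transporter, Col17a1 (0.29), a hemidesmosome collagen of basal keratinocytes, and the histone variant genes H2afz (0.29) and H2afv (0.29). The median over the 1108 genes was 0.05. Pcna, Slc6a6, Col17a1 and H2afv were above 0 in each of the 6 plates, and H2afz in 5. For Glul the 5 highest were Sdc4 (0.29), a cell surface proteoglycan, Ap2m1 (0.22), a clathrin adaptor subunit, Vdr (0.22), the vitamin D receptor, Prrc2c (0.21) and Khdrbs1 (0.21), beside a median of 0.02. None of these 5 was above 0 in every plate.

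Other genes of the pathways were read from 4 lists with 92 genes, of which 86 had a row. For wound bed against control 37 were considered, and 2 were higher and 1 lower by the size rule, beside 7.83% higher and 8.24% lower over all genes considered. Ppat, which starts purine synthesis from glutamine, had ratios of 2.60 and 2.98, with 31 and 127 wound bed reads against 7 and 20 control reads. Gcsh, a carrier protein of the glycine cleavage system, had 4.88 and 1.88, with 112 and 396 wound bed reads against 4 and 159 control reads. Cad, which starts pyrimidine synthesis from glutamine, had -1.84 and -1.76, but its wound bed reads of 32 and 1 came from 5 cells. Of the 12 genes of the amino acid stress response considered, none met the rule. Atf4 itself had ratios of 3.14 and 0.86. It had 168 and 148 wound bed reads, from 27 of 85 cells, against 34 and 121 control reads, from 15 of 84 cells. Asns, the glutamine-using asparagine synthetase and a known Atf4 target, had ratios of 4.71 and 0.045, a difference in batch 1 alone. Its reads numbered 59 and 63 in the wound bed plates against 1 and 92 in the control plates. Both are named outside the rule on named genes, after their values were seen.

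For distal against control 39 genes of these lists were considered, and 5 were higher and 3 lower, beside 8.07% higher and 6.09% lower over all genes considered. The higher ones were Slc25a32 (3.41 and 3.98), the mitochondrial folate carrier, Mthfd1 (2.47 and 2.77), the cytosolic folate enzyme with 3 activities, Sfxn1 (1.40 and 1.55), a mitochondrial serine carrier, Gcsh (6.26 and 1.38) and Ctps (1.2 and 1.18), CTP synthase. The lower ones were Mthfs (-1.95 and -1.79), a folate enzyme, Gcat (-1.01 and -1.98), which forms glycine from a threonine product, and the stress gene Ddit4 (-1.10 and -1.49). Sfxn1 was read in 31 distal against 24 control cells and Mthfd1 in 20 against 9, whereas Slc25a32 rested on 8 distal and 6 control cells. Ddit4 had 3 and 0 distal reads, from 2 cells, against 7 and 9 control reads, from 9 cells. Mthfs had 11 and 3 distal reads, from 7 cells, against 30 and 27 control reads, from 10 cells. In the control plate of batch 1 Gcsh had 4 reads and Mthfd1 had 3. Distal against wound bed gave 1 higher and 3 lower of 40, beside 9.59% higher and 5.28% lower over all genes considered. Among them were Mthfd1 at 1.07 and 2.30, Mthfd2l (a relative of Mthfd2) at -3.34 and -1.40 and Xpot (exportin for transfer RNA) at -1.89 and -1.30. Mthfd2l had 1 and 14 distal reads against 19 and 40 wound bed reads, from 7 cells in each region. Medians over the genes of the 4 lists considered were -0.10 and 0.48 for wound bed against control, 0.73 and 0.17 for distal against control and 0.44 and -0.49 for distal against wound bed.

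Psat1 was also set beside genes that mark other groups of these cells, at 10000 reads per cell. Split by Ly6a reads, it was read in 29.4% of 34 distal cells with and 25.6% of 43 without, in 64.2% of 53 wound bed cells with (49.8 to 76.9%) and 28% of 25 without (12.1 to 49.4%), and in 22.7% of 22 control cells with and 13.1% of 61 without. Split by Stfa1 reads, it was read in 23.8% of 21 distal cells with and 28.6% of 56 without, in 47.5% of 40 wound bed cells with and 57.9% of 38 without, and in 0 of 4 control cells with and 16.5% of 79 without. Stfa1 encodes an epidermal inhibitor of cysteine proteases. Split by Krt10 reads, Psat1 was read in 25.5% of 47 distal cells with and 30% of 30 without. In the wound bed it was read in 50.8% of 59 cells with and 57.9% of 19 without. In control it was read in 2.94% of 34 cells with (0.0744 to 15.3%) and 24.5% of 49 without (13.3 to 38.9%).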

How the data were processed

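The authors deposited a table of whole-number read counts per gene and cell, without normalisation. Salmon 0.13.1, R 4.0.3 and Seurat are listed in the submitters' processing notes, as is build mm10 (GRCm38). Their roles, the step to whole counts and the use of strand are not given in the sources used here. All 250 columns matched a label and no columns were identical. No cell was filtered and no doublets were called. Counts were summed per plate and scaled by TMM (edgeR 4.0.16, R 4.3.3). Ratios of CPM + 1 were taken within each batch. Coordinates and exon lengths came from GENCODE M21. Shares have exact Clopper-Pearson 95% intervals. The floor for a plate without reads was 3 counts. Thinning to 10000 reads left out 4 distal, 7 wound bed and 1 control cell. The steps were tested on simulated counts. The 9 genes, the gene lists and the settings were chosen with earlier results of these data known. Named pathway genes were up to 8 per comparison that met the size rule, ranked by the smaller batch ratio. Besides these, the 5 genes most alike to Psat1 and to Glul were named, leaving out predicted, ribosomal protein and mitochondrial genes. The marker genes were named as well. No row was found for 13 listed genes. Alternatives covered scaling (total counts, DESeq2 size factors), filters, pseudocounts, cell weights, depth, left-out cells and single batches; leaving out cells rich in predicted genes was chosen after seeing the data. A gene of the pathway lists is not reported here.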

Additional observations from a re-analysis of the deposited data

How the results depend on the processing

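Psat1 and Glul met the size rule for wound bed against control in all 15 alternatives. Shmt1 lost it in 4 and Slc1a4 in 1. Not all alternatives could have changed this outcome. Dropping the detection filter or using a single batch cannot undo a result that met the rule. No wound bed or control cell had over 500000 reads, so leaving out such cells changed the scaling alone. The number of members meeting the rule, 4 for wound bed against control, was 2 with reads required in at least 25% of cells, and 3 to 5 elsewhere. For distal against control it was 1. It became 0 with every cell weighted equally and without cells over 500000 reads, 2 with thinned cells, with cells of at least 2000 genes and with batch 2 alone, and 3 with batch 1 alone. For distal against wound bed it was 2. It was 1 with at least 25% of cells, 4 with batch 2 alone, and 3 with batch 1 alone, without cells over 500000 reads and without the cell with the most reads. With thinned cells it was 2, Psph being higher and Psat1 no longer meeting the rule. With equal weight the members differed, Psph and Shmt1 being higher and Psat1 and Slc1a4 no longer meeting the rule. Over all genes, 928 met the rule for wound bed against control, 900 for distal against control and 935 for distal against wound bed. Without a detection filter these were 1992, 1905 and 1987; at 25% of cells 246, 250 and 247; with thinned cells 562, 377 and 494; with cells of at least 2000 genes 1719, 1496 and 1731; with batch 1 alone 4290, 4755 and 4196; with batch 2 alone 3042, 3189 and 3874. Under total counts the share of higher genes for distal against wound bed was 49.7%, against 64.5%, and the median log2 ratio of all genes in batch 1 was -0.25, against 0.25. That median was 0.40 under total counts, against 0.03, for wound bed against control, and 0.09, against 0.23, for distal against control. The cause of these shifts was not tested. Among cells with both genes, pooled over plates, the rho of Psat1 with Slc1a4 was -0.11 and that of Phgdh with Psph 0.43. Low counts, in 17, 6 and 7 of 250 cells, limit Shmt2, Mthfd2 and Slc1a5. No paired analysis was possible because no animal is named, so plates could not be matched by mouse. No result comes from a test. All ratios were taken within a batch, which matches plates by batch alone.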
